A study of Auxenochlorella pyrenoidosa with 18 samples.

Results

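Close head-to-tail neighbours are gene models that follow each other on the same strand of a scaffold, so that the 3' end of the upstream partner faces the 5' end of the downstream partner across a short gap. Gene models were sorted by their start on each scaffold, and a neighbouring pair without overlap was counted as close when both models lay on the same strand and fewer than 500 bases separated their predicted transcript ends. The rule found 1106 such pairs among 9042 neighbouring pairs of the alga Auxenochlorella pyrenoidosa (12.2%) and among 3241 same-strand pairs (34.1%). They hold 2087 of the 10284 gene models (20.3%), and 125 of these models belong to 2 close pairs. The comparison class is the 874 same-strand pairs 3000 bases or more apart, called distant pairs, of which 197 share a model with a close pair.

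The series sampled strain FACHB-9 as whole cells. Heterotrophic cells, fed glucose and urea, were taken at 0, 24 and 72 h, and cells that had used up the glucose, been diluted and been moved into light were taken at 2, 8 and 24 h. Each of these 6 groups has 3 libraries from separate biological experiments handled in a single batch. The gene models belong to the whole series and to none of its 18 libraries, so nothing below compares the groups, and the spread given is the spread between models, pairs or scaffolds.

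In nuclear genomes of green algae most genes carry a promoter and a polyadenylation site of their own. In a head-to-tail pair, transcription of the upstream gene runs towards the promoter of the downstream gene, and cleavage and polyadenylation in the 3' untranslated region mark where the first messenger ends. In Chlamydomonas reinhardtii, some reading frames that follow each other on a strand are known to share a polycistronic messenger RNA. A gene predictor such as AUGUSTUS has to place an end and a new start between the coding sequences, or else join them into a single model across an intron.

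Close same-strand pairs kept a minimum distance that tail-to-tail pairs did not have. The smallest gap was 46 bases, the median was 283 bases, and the 25th and 75th percentiles were 176 and 367.5 bases. Only 6 same-strand gaps were under 50 bases, against 562 convergent gaps, where 2 transcript ends face each other, and 0 divergent gaps, where 2 starts face each other. The smallest gap was 1 base in convergent pairs and 95 bases in divergent pairs. Among all neighbours at a given distance, the same-strand share was 1.06% under 50 bases (95% Wilson interval 0.485 to 2.29%). It was 10.2% for gaps of 50 to 99 bases (interval 7.67 to 13.6%), 25.5% where 150 to 199 bases lay between the models (interval 22.3 to 29.0%) and 41.8% in the class of 300 to 349 bases (interval 37.2 to 46.6%). From there to 499 bases it lay between 40.3 and 45.3%. The Wilson intervals treat pairs as independent.

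**Figure D1:**
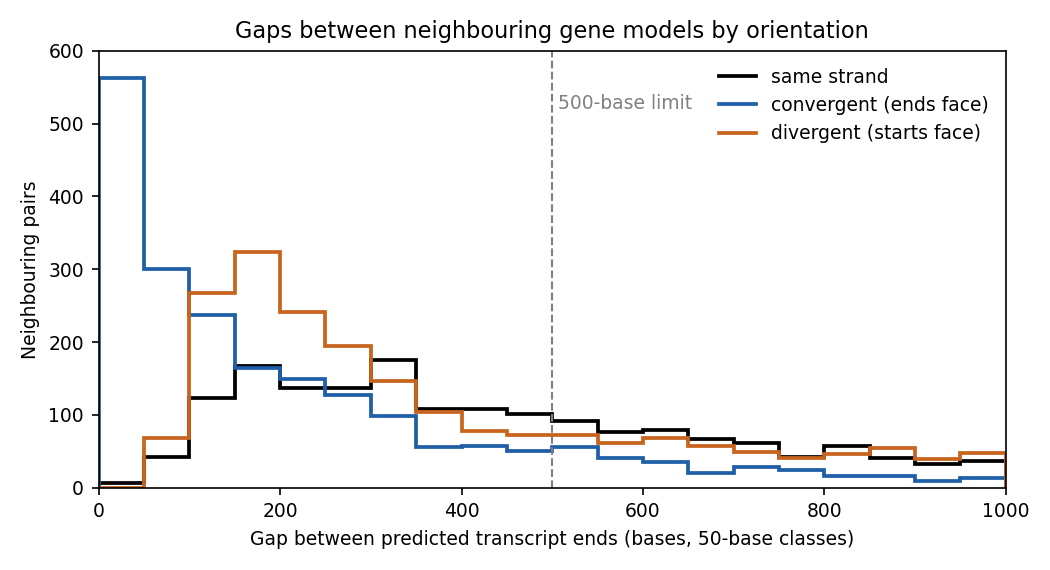
Number of neighbouring pairs (vertical axis) by the gap between predicted transcript ends in classes of 50 bases (horizontal axis), for same-strand, convergent and divergent pairs; the dashed line is the 500-base limit. Convergent pairs are most numerous under 50 bases (562), divergent pairs at 150 to 199 bases (324), and same-strand pairs at 300 to 349 bases (176).

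Same-strand gaps had no single short preferred length. Of the close pairs, 48 (4.34%) had a gap under 100 bases, 290 (26.2%) one of 100 to 199 bases, 274 (24.8%) one of 200 to 299 bases, 284 (25.7%) one of 300 to 399 bases and 210 (19.0%) one of 400 to 499 bases. In classes of 50 bases, counts were highest at 150 to 199 bases (167 pairs) and at 300 to 349 bases (176 pairs), with 137 pairs in each of the classes between. The plus strand carried 518 close pairs and the minus strand 588, with median gaps of 279.5 and 286 bases.

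The last digit of the gap was far from evenly used, which limits how finely a gap can be read. On the plus strand 282 of 518 gaps (54.4%) ended in the digit 5, and every other digit ended 19 to 34 gaps. On the minus strand 315 of 588 gaps (53.6%) ended in the digit 6, and every other digit ended 23 to 39 gaps. Of 1497 close divergent gaps, 1495 ended in 5. Distant gaps ended in these digits more often, 320 of 446 (71.7%) on the plus and 328 of 428 (76.6%) on the minus strand. The mix of digits thus differed between the classes compared below. The facing 3' end had a median of 177 bases with the commonest and 219 with another digit in close pairs, and 84.5 and 145 in distant pairs. The mean score of the last coding segment facing the gap was 0.961 and 0.958 in close pairs, and 0.911 and 0.940 in distant pairs. For distances between coding sequences, the commonest last digit held 12.5% of close pairs on the plus strand and 11.2% on the minus strand. The cause of the uneven digits between transcript ends was not tested.

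The 5 closest pairs all lay on the minus strand, and their models were complete, with a start and a stop codon. Models g8607 and g8606 on scaffold01168 (bases 1254192 to 1263345 and 1252082 to 1254145) were 46 bases apart, with a 3' end of 95 bases facing a 5' end of 53 bases, so that only 194 bases separated their coding sequences. The other pairs at 46 bases were g3069 and g3068 on scaffold00366 (bases 1692538 to 1695281 and 1691004 to 1692491), g3152 and g3151 on the same scaffold (bases 2186139 to 2188242 and 2171929 to 2186092), and g3891 and g3890 on scaffold00514 (bases 1028567 to 1030450 and 1017997 to 1028520). Models g7188 and g7187 on scaffold01003 were 47 bases apart (bases 1174519 to 1177491 and 1167713 to 1174471). Their coding sequences lay 2905 bases apart, since the 5' end of g7187 held an intron. At the other side of the range, the pairs just inside the limit had gaps of 496, 496 and 499 bases (g76 with g77, g9206 with g9205, g9531 with g9532) and the same-strand pairs just outside it had gaps of 502, 505 and 505 bases (g8813 with g8812, g1378 with g1379, g4007 with g4008).

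Close pairs were spread over the assembly, with some difference between scaffolds. They occurred on 117 scaffolds, and 1047 of them lay on scaffolds with an annotated span of at least 100 kb. On the 29 scaffolds with at least 30 same-strand pairs, the close share of those pairs had a median of 34.2% and ran from 14.3% on scaffold00825 (7 of 49 pairs, 95% Wilson interval 7.10 to 26.7%) to 48.7% on scaffold00132 (19 of 39 pairs, 33.9 to 63.8%). The scaffolds with the most close pairs were scaffold00012 with 72 of 177 same-strand pairs (40.7%), scaffold01012 with 71 of 169 (42.0%) and scaffold00366 with 69 of 231 (29.9%). The share on scaffold00366 was below the median. The other 59 pairs came from 58 shorter scaffolds, and in only 5 of them were both models complete, against 99.2% of close pairs on the long scaffolds.

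Most close pairs stood alone, and runs were short. Of the 1106 pairs, 867 (78.4%) shared no model with another close pair, and 239 (21.6%) made up 114 runs of 3 or more models. There were 104 runs of 3 models, 9 of 4 models and 1 of 5 models. No expected number of runs was computed. A further close same-strand neighbour followed 12.0% of close and 11.9% of distant pairs that have a next model without overlap. Of all neighbouring pairs, 12.2% were close same-strand pairs, so close pairs were not followed by another close pair more often than that share. The 114 runs held 353 models on 34 scaffolds, 56 runs on the plus and 58 on the minus strand, and all models were complete in 113 of them. A run spanned 5102 to 27087 bases, with a median of 13522 bases.

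The only run of 5 models was g9572 to g9576 on scaffold01246 (bases 271101 to 296564, minus strand). Read 5' to 3', it began with g9576, g9575, g9574 and g9573, with 5, 7, 9 and 9 exons, and ended with g9572, which had 40 exons and 3702 coding bases. Its gaps in that order were 196, 416, 296 and 301 bases. Of the 9 runs of 4 models, the 4 with the smallest span are described. The run g7447 to g7450 on scaffold01012 (bases 868822 to 883390, plus strand) likewise put its exon-rich model last, with 6, 3, 4 and 20 exons. The run g8565 to g8568 on scaffold01168 (bases 912048 to 929771, minus strand) put it first: g8568 had 20 exons, and the models after it had 6, 6 and 8. The runs g4880 to g4883 on scaffold00629 (bases 1762085 to 1777330, minus strand) and g6813 to g6816 on scaffold00992 (bases 670090 to 686914, plus strand) held models of 6 to 12 exons. Over all runs of 3 or more, median exon number was 9 for the first model, 9 for the models between and 8 for the last.

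**Figure D2:**
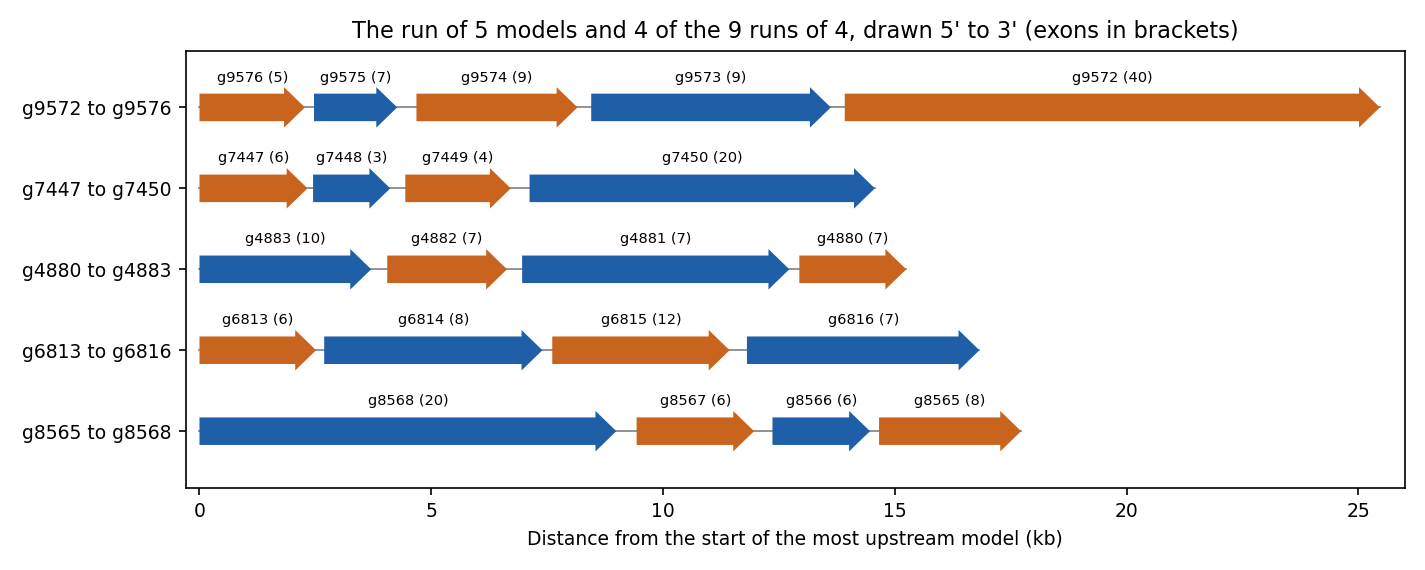
The run of 5 models and, of the 9 runs of 4 models, the 4 with the smallest span, each drawn 5' to 3' from left to right as arrows to scale, with exon numbers in brackets; the horizontal axis is the distance from the start of the most upstream model in kb. Exon-rich models stand at the end of the first and second run (g9572, 40 exons; g7450, 20 exons) and at the start of the lowest (g8568, 20 exons).

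The 3' untranslated end that faces the gap was longer in close than in distant pairs. The 3' untranslated region is the part of a messenger after the stop codon that carries the polyadenylation signal. Its median was 199 bases in the upstream partner of close pairs (25th to 75th percentile 114.25 to 331 bases, n = 1106) and 101 bases in that of distant pairs (52 to 217.75 bases, n = 874). Over all models with a predicted 3' end it was 147 bases (n = 9407), between the values of both classes. On log2 lengths the facing 3' end was 1.90 times as long in close as in distant pairs (95% interval 1.75 to 2.06; log2 difference 0.93 ± 0.060 SE; linear model with errors clustered by scaffold, n = 1980 pairs, adjusted p = 1.48e-29). It was longer on 40 of the 42 scaffolds with at least 5 pairs of each class. The outer 3' end, that of the downstream partner, had a median of 153 bases in close and 156 bases in distant pairs, and the test found no difference (ratio 0.970, 95% interval 0.883 to 1.07, n = 1923, adjusted p = 0.566).

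Within close pairs the facing 3' end was also the longer of the 2 tails. It exceeded the outer 3' end in 629 of 1059 pairs in which both were predicted (59.4%), and the outer one was 0.736 times as long (95% interval 0.687 to 0.788, n = 1059, adjusted p = 1.54e-12). In distant pairs the order was turned, with the facing 3' end the longer one in 338 of 864 pairs (39.1%), and the contrast differed between the classes by -0.98 log2 units (95% interval -1.12 to -0.84, n = 1923, adjusted p = 1.26e-21). Along the range of gaps, the median facing 3' end was 218 bases at gaps under 150 bases and at 150 to 299 bases. It was 177 bases both at 300 to 499 bases and at 500 to 999 bases, so it did not change across the 500-base limit. At 1000 to 2999 bases it was 151 bases, and from 3000 bases 101 bases. The outer 3' end stayed between 143.5 and 164 bases.

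The gap begins where the 3' end stops, so a longer facing end makes a shorter gap by construction. The distance between coding sequences holds both facing ends with their introns, so a limit on that distance selects short facing ends, also by construction. Neither choice of pairs is independent of the lengths compared. When pairs were chosen by the distance between their coding sequences instead, 226 pairs were close, and the facing 3' end differed from that of distant pairs by -0.0046 log2 units (n = 226 close and n = 1070 distant pairs, adjusted p = 0.995). The within-pair difference was then 0.11 log2 units and its contrast between the classes -0.25, both without a call. Facing 3' ends in close same-strand pairs were 1.28 times as long as those in 1802 close convergent pairs (95% interval 1.22 to 1.35, n = 2908, adjusted p = 1.93e-16, a test chosen after the values were seen). By coding-sequence distance that difference was 0.061 log2 units with an adjusted p of 0.418.

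**Figure D3:**
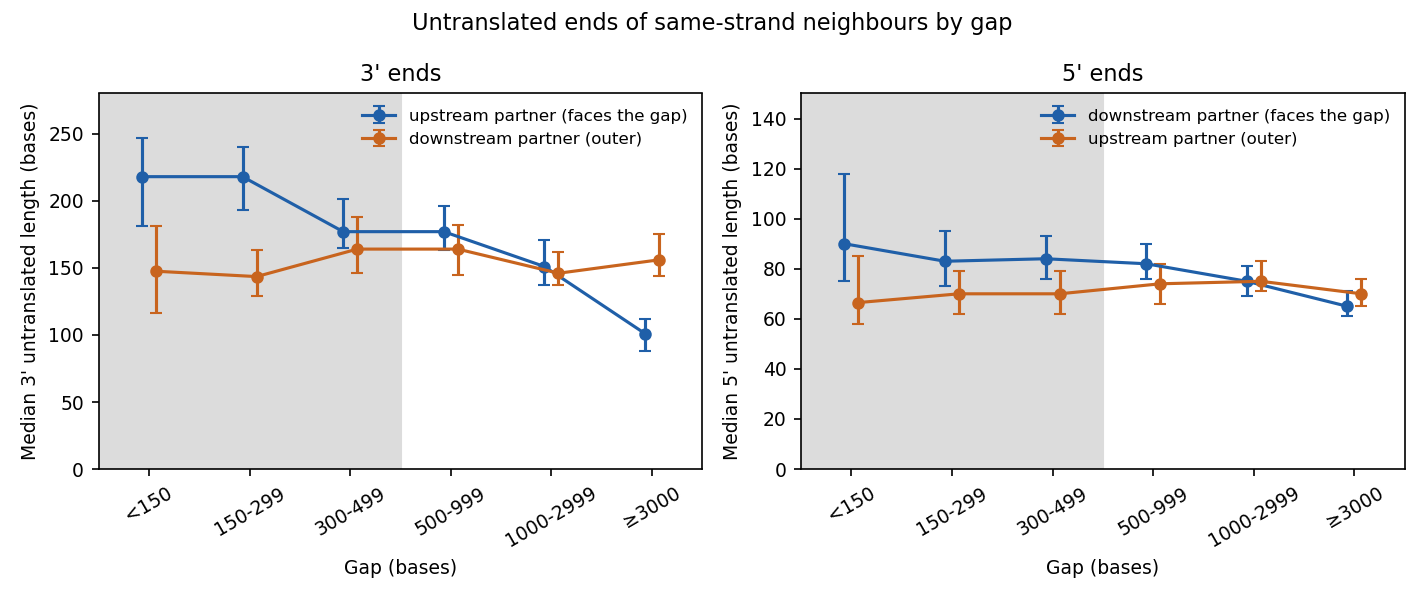
Median length in bases (vertical axes) of 3' ends (left) and 5' ends (right) of same-strand partners by gap class (horizontal axes), with 95% order-statistic intervals that treat models as independent; grey marks the close pairs. The facing 3' end falls from 218 to 101 bases and the facing 5' end from 90 to 65 bases as the gap widens, while the outer ends show no such fall.

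The longest facing 3' ends held introns after the stop codon. Model g6860 on scaffold00992 (bases 944504 to 951217, plus strand) had a 3' end of 2386 bases with 17 whole exons after the one that holds the stop codon, and lay 396 bases before g6861. The next longest were those of g5543 on scaffold00760, with 1617 bases and 1 such exon, and g621 on scaffold00047, with 1565 bases and 2. An intron in the facing 3' end was rare, present in 32 of 1106 close pairs (2.89%) and 37 of 874 distant pairs (4.23%), a difference that did not pass the test (-1.34 percentage points, 95% interval -3.08 to 0.395, n = 1980, adjusted p = 0.258). By coding-sequence distance, a limit that leaves little room for such introns, the difference was -5.98 percentage points (n = 226 and n = 1070, adjusted p = 1.09e-12). In the outer 3' end an intron was present in 3.59% and 4.17% (n = 1923, without a call), and at gaps under 200 bases that difference was -2.62 percentage points, with a call (n = 324 and n = 864, adjusted p = 0.0128).

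The facing 5' untranslated end was longer too, by less. The gap stops where this 5' end begins, so a longer end makes a shorter gap by construction, as on the 3' side. The 5' untranslated region is the stretch before the start codon, through which the ribosome scans. Its median in the downstream partner was 84 bases in close pairs (25th to 75th percentile 47 to 150 bases, n = 1106) and 65 bases in distant pairs (39 to 115 bases, n = 873), with 74 bases over all models with a predicted 5' end (n = 9209), a ratio of 1.23 (95% interval 1.16 to 1.31; log2 difference 0.30 ± 0.046 SE; adjusted p = 5.19e-09). It was longer on 35 of 42 scaffolds. Its median was 84 bases at gaps of 300 to 499 bases and 82 bases at 500 to 999 bases, outside the limit. The outer 5' end, that of the upstream partner, had a median of 69 bases in close and 70 bases in distant pairs (ratio 0.992, 95% interval 0.9295 to 1.06, n = 1918, adjusted p = 0.855). Within close pairs the facing 5' end was 1.19 times as long as the outer one (95% interval 1.12 to 1.26, n = 1050, adjusted p = 1.05e-06), and this contrast differed from that in distant pairs by 0.32 log2 units (95% interval 0.19 to 0.46, n = 1917, adjusted p = 3.83e-05).

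Introns before the start codon, which in the facing 5' end also shorten the gap by construction, were more frequent there. They were predicted in 366 of 1106 downstream partners of close pairs (33.1%, 95% Wilson interval 30.4 to 35.9%) and in 216 of 873 of distant pairs (24.7%, 22.0 to 27.7%), a difference of 8.35 percentage points (95% interval 3.61 to 13.1, n = 1979, adjusted p = 0.00188, chosen after the values were seen). In the outer 5' end the shares were 24.95% and 24.0% (n = 1918, adjusted p = 0.951). The longest facing 5' ends were those of g4701 on scaffold00629, with 1106 bases and 9 whole exons before the start codon at a gap of 55 bases, g1013 on scaffold00068, with 1034 bases, and g383 on scaffold00012, with 830 bases.

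The 5' values were of opposite sign by coding-sequence distance, which contains the facing 5' end and its introns, so that a limit on it selects short ends without introns and favours this direction by construction. There the facing 5' end was shorter in close than in distant pairs, by -0.45 log2 units (n = 226 and n = 1069, adjusted p = 2.47e-08), the facing end was also shorter than the outer one within pairs (-0.36 log2 units), the contrast between the classes was -0.41 log2 units, and introns there were less frequent by -29.8 percentage points. Among pairs whose gap ended in another digit than the commonest of its strand, the facing 5' end differed by 0.11 log2 units (n = 509 and n = 225, adjusted p = 0.413) and the intron share by 4.52 percentage points (adjusted p = 0.359). Facing 5' ends of close same-strand pairs were 1.14 times as long as those of close divergent pairs (95% interval 1.08 to 1.20, n = 2602, adjusted p = 6.8e-06), and by coding-sequence distance the difference was -0.070 log2 units (adjusted p = 0.278).

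The downstream partner of a close pair was on average the larger gene model. It had a mean of 10.6 ± 8.06 exons (SD, n = 1106, median 8) against 10.04 ± 7.28 in the upstream partner (SD, n = 1106, median 8), and a median coding length of 1158 against 1066.5 bases. Over all 10284 models the mean was 9.64 ± 7.32 exons (SD) and the median coding length 1038 bases. Exon number counts every exon of a model, including untranslated exons in the end that faces the gap. Introns in that end shorten the gap by construction, so exon number is not fully independent of the choice of pairs. Within pairs the downstream partner had 1.07 times as many exons (95% interval 1.03 to 1.12, n = 1106, adjusted p = 0.00226) and 1.07 times the coding length (95% interval 1.01 to 1.12, adjusted p = 0.0205). The downstream partner had more exons in 546 pairs (49.4%), the upstream partner in 463 (41.9%), and 97 pairs (8.77%) had equal numbers. In distant pairs the downstream partner had more exons in 391 pairs (44.7%), the upstream partner in 440 (50.3%), and 43 pairs (4.92%) had equal numbers.

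Set against distant pairs, downstream partners passed the test of size and upstream partners did not. Downstream partners of close pairs had 1.11 times as many exons as those of distant pairs (95% interval 1.05 to 1.17, n = 1980, adjusted p = 0.00035, higher on 29 of 42 scaffolds) and 1.11 times the coding length (95% interval 1.04 to 1.18, adjusted p = 0.00272, longer on 27 of 42 scaffolds). For upstream partners the ratios were 0.955 for exons (95% interval 0.906 to 1.01, n = 1980, adjusted p = 0.110) and 0.957 for coding length (95% interval 0.903 to 1.01, adjusted p = 0.158). Against same-strand pairs at least 1000 bases apart, coding length passed the test for both, being -0.11 log2 units lower in upstream partners (n = 1106 and n = 1545, adjusted p = 0.00150) and 0.12 higher in downstream partners (adjusted p = 0.00624). The within-pair contrast differed between close and distant pairs by 0.22 log2 units for exons (95% interval 0.11 to 0.32, n = 1980, adjusted p = 0.00035) and 0.21 for coding length (95% interval 0.08 to 0.35, adjusted p = 0.00381). For exons per coding length the tests found no difference, with ratios of 0.997 (95% interval 0.962 to 1.03, n = 1980) for upstream and 1.00 (0.965 to 1.04) for downstream partners, and with coding length as a covariate the exon difference of downstream partners was 0.039 log2 units (adjusted p = 0.157).

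These differences of size were small and did not hold under every choice. By coding-sequence distance the downstream exon difference was -0.0072 log2 units (n = 226 and n = 1070, adjusted p = 0.995), and the within-pair contrasts between classes were 0.17 for exons and 0.13 for coding length, without a call. With gaps under 200 bases the downstream differences of 0.089 log2 units for exons and 0.14 for coding length had no call, and on scaffolds of at least 100 kb the within-pair coding length contrast missed it (0.081, n = 1047, adjusted p = 0.0504). Among pairs with another last digit of the gap, which left 509 close and 226 distant pairs, the downstream differences were 0.013 log2 units for exons and 0.016 for coding length (n = 509 and n = 226, adjusted p = 0.941 for both).

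**Figure D4:**
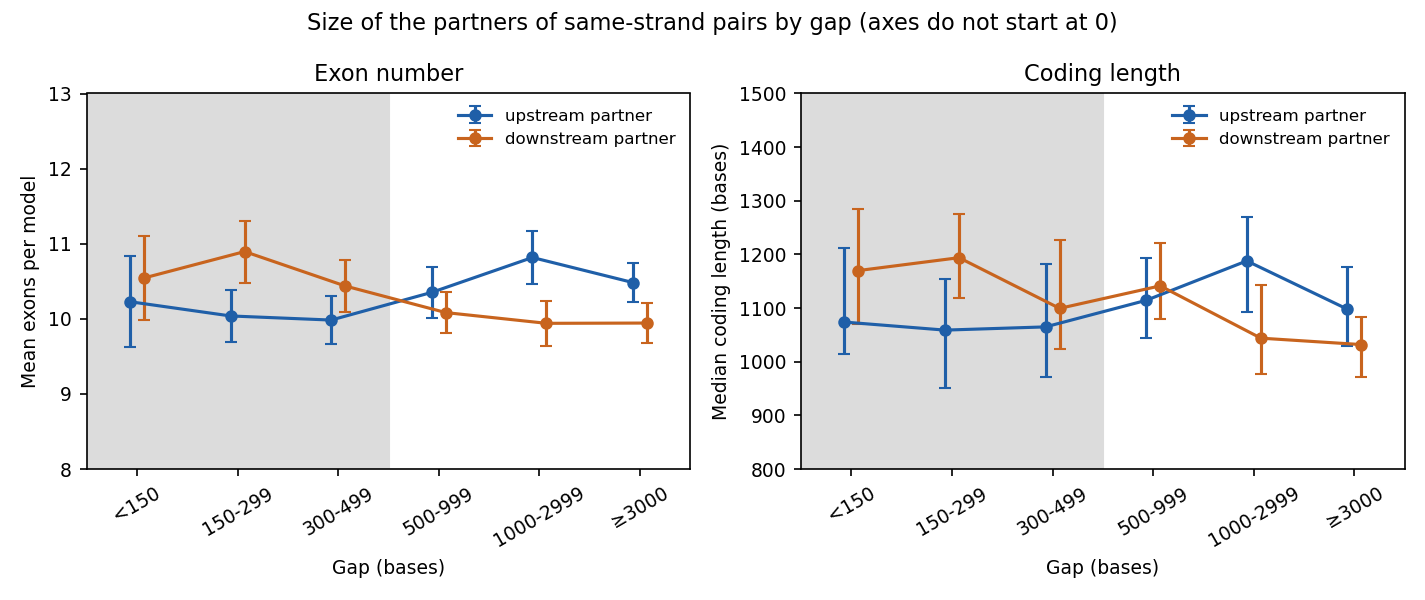
Mean exons per model (left, bars are standard errors) and median coding length in bases (right, bars are 95% order-statistic intervals) by gap class (horizontal axes) for upstream and downstream partners; both bars treat models as independent, grey marks close pairs, and the axes do not start at 0. The downstream partner lies above the upstream one in each close class and below it from 1000 bases on. At 500 to 999 bases it lies below in exons (10.1 against 10.4) and above in coding length (1141.5 against 1114.5).

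Partners of close pairs had 1 to 85 exons and 138 to 18072 coding bases, against 1 to 103 exons and 91 to 27831 coding bases over all models. The complete close pair with the most exons was g8585 and g8584 on scaffold01168, with 28 and 67 exons, 4257 and 12777 coding bases, and a gap of 405 bases. It was followed by g258 and g257 on scaffold00012 (8 and 85 exons, gap 254 bases) and g8126 and g8127 on scaffold01094 (9 and 79 exons, gap 285 bases), and in all 3 of these pairs the downstream partner was the larger. The pair with the fewest exons was g6807 and g6806 on scaffold00992 (bases 597257 to 599344 and 596361 to 597144, minus strand), with 3 exons and 1 exon, 429 and 513 coding bases and a gap of 112 bases. The next were g1088 and g1089 on scaffold00092 and g9281 and g9282 on scaffold01211, each with 2 and 3 exons. Across pairs, exon numbers of the partners were weakly related, with a Spearman rho of 0.12 and a Pearson r of 0.11 on log2 values in 1106 close pairs, and -0.04 and -0.04 in 874 distant pairs. These are descriptions across pairs, which share scaffolds and models.

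The coding segments next to a close gap scored higher than those next to a distant gap. AUGUSTUS writes a score for each coding segment, and a score near 1 is the usual top value. The last coding segment of the upstream partner had a mean score of 0.959 ± 0.120 in close pairs (SD, n = 1106) and 0.919 ± 0.176 in distant pairs (SD, n = 874), a difference of 0.0409 (95% interval 0.0279 to 0.0540, adjusted p = 3.37e-08, higher on 33 of 42 scaffolds). Scores under 0.5 were given to 17 of these segments in close pairs (1.54%) and to 49 in distant pairs (5.61%). The first coding segment of the downstream partner had a mean score of 0.882 ± 0.174 in close pairs (SD, n = 1106) and 0.848 ± 0.210 in distant pairs (SD, n = 874), a difference of 0.0336 (95% interval 0.0200 to 0.0473, adjusted p = 1.02e-05, higher on 31 of 42 scaffolds). Over all models with the respective end predicted, the means were 0.948 for last segments (n = 9430) and 0.870 for first segments (n = 9308), in both cases nearer to the mean of close than to that of distant pairs.

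The segments at the outer ends of the same pairs did not show this. The first segment of the upstream partner scored 0.872 in close and 0.874 in distant pairs (difference -0.00208, 95% interval -0.0182 to 0.0140, n = 1925, adjusted p = 0.955), and the last segment of the downstream partner scored 0.945 and 0.943 (difference 0.00249, 95% interval -0.0103 to 0.0153, adjusted p = 0.955). Both outer tests were chosen after the values were seen. The score of the facing last segment was highest at gaps of 300 to 499 bases, with a mean of 0.970, against 0.944 at gaps under 150 bases and 0.954 at 150 to 299 bases. At 500 to 999 bases, outside the close class, it was 0.958, above the values under 300 bases. The facing first segment had means of 0.879, 0.874 and 0.889 in the close classes, in order of rising gap, and 0.867 at 500 to 999 bases. By coding-sequence distance the facing differences were 0.0224 for the last segment (n = 226 and n = 1070, adjusted p = 0.0750) and 0.0153 for the first (adjusted p = 0.490), and with another last digit of the gap they were 0.0174 and 0.0240, without a call.

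**Figure D5:**
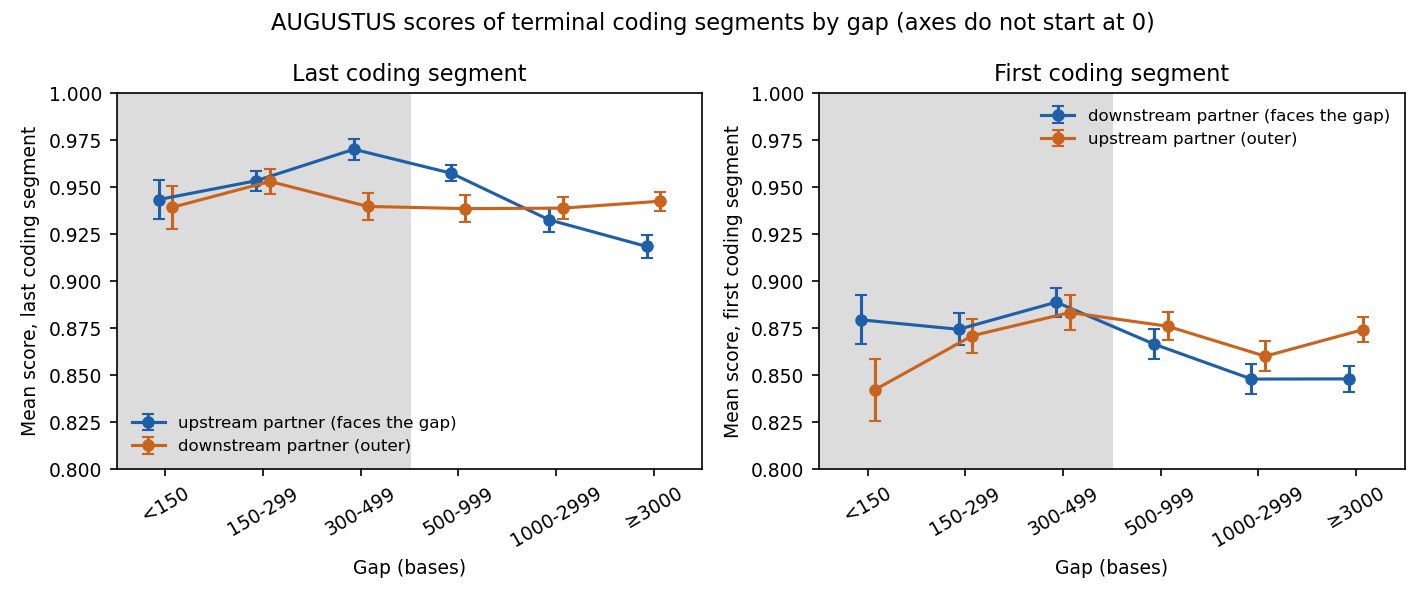
Mean AUGUSTUS score (vertical axes, not starting at 0) of the last coding segment (left) and the first coding segment (right) by gap class (horizontal axes) for the partner that faces the gap and for the other partner; bars are standard errors that treat models as independent, and grey marks close pairs. From 3000 bases on, both facing segments score below the outer segments of the same kind (0.919 against 0.943, and 0.848 against 0.874).

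The mean score over all coding segments of a model separated the classes little. It was 0.944 ± 0.0912 for upstream and 0.936 ± 0.0877 for downstream partners of close pairs (SD, n = 1106 each), and 0.937 and 0.9300 in distant pairs, with differences of 0.00660 (95% interval -0.00115 to 0.0143, adjusted p = 0.122) and 0.00605 (95% interval -0.00122 to 0.0133, adjusted p = 0.125). Within close pairs the downstream partner scored lower by -0.00788 (95% interval -0.0151 to -0.000636, n = 1106, adjusted p = 0.0488). This call was lost in 8 of the 11 alternatives fitted for it, among them complete models (-0.00475, n = 1044, adjusted p = 0.265), and the contrast did not differ from that in distant pairs (adjusted p = 0.926). The score of the whole gene line was higher in close than in distant pairs, with a median of 0.14 against 0.08 for upstream partners (ratio 1.55 on log2 values, 95% interval 1.44 to 1.67, n = 1980, adjusted p = 4.09e-20) and 0.10 against 0.08 for downstream partners (ratio 1.28, 95% interval 1.17 to 1.39, adjusted p = 2.97e-07), in tests chosen after the values were seen. Over all 10284 models the median was 0.11. That lies between the classes for upstream partners and above both for downstream partners.

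Coding sequences of close pairs were farther apart than most introns are long. The median distance between the coding sequences was 690.5 bases (25th to 75th percentile 528 to 938.75 bases, smallest 140 bases), and predicted untranslated exons filled a median of 47.0% of it. The median coding intron of the annotation measured 209 bases, and 3.08% of 85135 coding introns were at least 690.5 bases long. The coding distance was at or under 508 bases, the 95th percentile of coding introns, in 237 close pairs (21.4%).

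The models on the outer sides of close and of distant pairs lay mostly on the opposite strand. Most neighbours in the annotation do, since same-strand pairs make up only 3241 of the 9042 neighbouring pairs. The strand of the outer models is therefore not a trait of close pairs. The model before the upstream partner lay on the same strand in 35.2% of 1044 close pairs that have one without overlap (95% Wilson interval 32.4 to 38.2%) and in 38.5% of 864 distant pairs (35.4 to 41.8%). The model after the downstream partner did so in 34.4% of 1046 close pairs (31.6 to 37.3%) and 39.8% of 859 distant pairs (36.6 to 43.1%). A further close same-strand neighbour followed 125 of the 1046 close pairs (12.0%) and 102 of the 859 distant pairs (11.9%). The outer gap after the downstream partner was under 500 bases in 51.4% of close pairs (48.4 to 54.5%) and 44.9% of distant pairs (41.6 to 48.3%). Before the upstream partner, 47.7% of close and 43.3% of distant pairs had an outer gap under 500 bases. Such gaps are common in the annotation, where 1106 same-strand, 1802 convergent and 1497 divergent pairs of the 9042 neighbouring pairs have them. A short outer gap is therefore not read as a trait of close pairs. The shares of outer models and outer gaps were not tested.

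Few close pairs had partners with matching exon lengths. Partners had 5 or more consecutive internal coding exons of matching lengths in 8 close same-strand pairs (0.723%, 95% Wilson interval 0.367 to 1.42%). Same-strand pairs 500 to 2999 bases apart had an overlapping interval, with 4 of 1261 pairs (0.317%, 0.123 to 0.813%). The counts were 1 of 874 distant pairs (0.114%), 1 of 1802 close convergent pairs and 0 of 1497 close divergent pairs. The longest, of 8 exons, joined g6241 and g6242 on scaffold00902 (bases 90976 to 96700 and 96906 to 101787, plus strand), with 16 and 15 exons and a gap of 205 bases. Models g5289 and g5290 on scaffold00734 shared 6. Models g3839 and g3840 on scaffold00514 were alike as a whole, with 7 exons each, 660 and 666 coding bases and 5 shared internal exons. Pairs g1112 with g1113 on scaffold00092 and g4000 with g4001 on scaffold00514 also shared 5. Protein sequences were not compared.

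More than 1 transcript was predicted for 24 upstream partners of close pairs (2.17%) and 6 of distant pairs (0.686%), a difference of 1.48 percentage points (95% interval 0.451 to 2.52, n = 1980, adjusted p = 0.0122, chosen after the values were seen). For downstream partners the counts were 20 (1.81%) and 15 (1.72%, n = 1980, adjusted p = 0.955). The share in close upstream partners was thus near that of downstream partners in both classes, and distant upstream partners had the lowest share. The share over all models is not given here, so this is not read as a trait of close pairs. The upstream difference had no call against same-strand pairs at least 1000 bases apart (0.940 percentage points), at gaps under 200 bases (0.201) or with another last digit of the gap (0.933), and it was -0.143 percentage points by coding-sequence distance.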

How the data were processed

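Messenger RNA libraries of the alga were sequenced, and TopHat 1.3.3 and Cufflinks are the tools listed in the submitters' processing notes. Library counts were not analysed here, so depth is unknown. The deposited gene models name AUGUSTUS as their source, per the file; its version and settings, and the assembly build, are not given in the sources used. Start and end positions count from 1. The score of gene, transcript, coding segment and intron lines is as the authors deposited it; 5 close and 4 distant pairs hold a coding score above 1, so scores were not read as probabilities. No genome sequence was used, so no gap sequence is shown.

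Where a gene had several transcripts, that with most coding bases stood for it. Untranslated lengths sum exon bases outside the coding sequence and were used where a transcript end was predicted. Values (log2 for lengths, exon numbers and gene scores) were compared in linear models across pairs, with errors clustered by scaffold, two-sided, Benjamini-Hochberg adjusted over 22 planned tests and separately over 14 tests chosen after the values were seen. Calls are at 0.05. Members, tests and lists were chosen with earlier results of these data known. Named models follow a fixed rule: smallest gaps, largest runs (ties by smaller span), both sides of the limit, most and fewest exons, longest facing ends, shared exon lengths and scaffolds with most pairs. Alternatives changed the gap limit, comparison class, gap definition, completeness, scaffolds, scaffold term, transcript, coding-length covariate, last digit and scores above 1. The code was tested on simulated data. Python 3.11.15, NumPy 2.4.6, SciPy 1.17.1, pandas 2.3.3 and matplotlib 3.10.9 were used.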

Additional observations from a re-analysis of the deposited data

Results flagged for a closer look

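The contrast of downstream with upstream partner differed between close and distant pairs in 4 measures, by the tests of the difference given above. The differences were 0.22 log2 units for exon number, 0.21 for coding length, -0.98 for the 3' untranslated length and 0.32 for the 5' untranslated length. The 3' and 5' values include the end that faces the gap, which shortens the gap by construction.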

How the results depend on the processing

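Of 278 values of the 22 planned tests under the alternatives, 216 kept their direction and call, 33 lost the call, 8 gained a call and 21 changed sign; of 182 values of the tests chosen later, 148 kept both, 5 lost the call, 2 gained one and 27 changed sign. Log2 differences are given unless named as scores or counts, and where no cause is given it was not tested. Gaps under 200 bases left 338 pairs, a median gap of 146 bases and 16 runs; without a call were downstream exons (0.089), downstream coding length (0.14), and the within-pair exon (0.11), coding length (0.12) and score (-0.00387) contrasts, while the outer 3' intron share gained one (-2.62 percentage points). Gaps under 1000 bases gave 1696 pairs, a median of 376 bases and 247 runs, and lost the within-pair score (-0.0055). Against pairs at least 1000 bases apart, upstream coding length (-0.11), upstream score (0.00938) and downstream score (0.00707) gained a call, and upstream exons per coding length turned to 0.049. Measured between coding ends, 226 pairs with a median gap of 416.5 bases and 7 runs remained, since this distance includes the untranslated ends and so selects short ones by construction. Reversed were downstream exons (-0.0072), the facing 3' end (-0.0046), the facing 5' end (-0.45), within-pair coding length (-0.026), within-pair 3' end (0.11), within-pair 5' end (-0.36) and its contrast between classes (-0.41), the facing 5' intron share (-29.8 percentage points), more than 1 transcript upstream (-0.143 percentage points) and the facing 5' end against divergent pairs (-0.070). Without a call there were downstream coding length (0.044), facing last (score 0.0224) and first segments (score 0.0153), within-pair exons (0.047) and score (-0.0103), and the contrasts between classes for exons (0.17), coding length (0.13) and 3' end (-0.25), while the outer 3' end (-0.26) and the facing 3' intron share (-5.98 percentage points) gained one. The downstream score gained a call in complete models (0.00809), on scaffolds of at least 100 kb (0.00847) and with all ends predicted (0.00822), where the within-pair score was -0.00475, -0.00500 and -0.00475, without a call. On those scaffolds within-pair coding length was 0.081 (n = 1047, adjusted p = 0.0504). With the first listed transcript the within-pair score was -0.00608, and with coding length as a covariate downstream exons were 0.039, both without a call. With the commonest last digit (597 pairs, 51 runs) upstream exons gained a call (-0.10), and within-pair coding length (0.072) and score (-0.00358) lost it. With another last digit (509 pairs, 25 runs, and fewer distant pairs, 226) calls were lost for downstream exons (0.013) and coding length (0.016), the facing 5' end (0.11), facing last (score 0.0174) and first segments (score 0.0240), within-pair exons (0.041), coding length (0.12) and 5' end (0.14), and the contrasts for exons (0.021), coding length (0.12) and 5' end (0.10). The remaining changes of sign had no call in either setting. The class contrast of the within-pair score turned to 0.00346 at gaps under 200 bases, 0.00183 under 1000 bases, 0.00242 in complete models, 0.00224 on scaffolds of at least 100 kb, 0.00241 with all ends predicted, 2.32e-05 with the first listed transcript, 0.000295 and 0.00433 with the commonest and another last digit, and 0.000896 without scores above 1. The upstream score turned to -0.0022 at gaps under 200 bases, the outer 5' end to 0.014, 0.030 and 0.035 at gaps under 200 and 1000 bases and with another last digit, and the outer 3' end to 0.0074 with another last digit. Downstream exons per coding length, 5.79e-05 at first, turned to -0.046 and -0.013 at gaps under 200 and 1000 bases, -0.051 between coding ends, -0.0032 in complete models and with all ends predicted, -0.00065 on long scaffolds and -0.0028 with another last digit. Those of upstream partners turned to 0.0040 in complete models, 0.0049 on long scaffolds, 0.026 with scaffold as a fixed effect, 0.0061 with all ends predicted and 0.096 with another last digit. The score of the outer first segment turned to 0.00402 against pairs at least 1000 bases apart, 0.000965 with the scaffold effect and 0.00122 with another last digit, and that of the outer last segment to -0.00722 between coding ends, -0.000288 with the scaffold effect and -0.00375 with the commonest last digit. In percentage points, the outer 5' intron share turned to -1.01 at gaps under 200 bases and -3.42 between coding ends, the outer 3' share to 0.0427 against pairs at least 1000 bases apart, the facing 3' share to 0.489 with another last digit, and more than 1 transcript downstream to -0.00931 with the commonest. No paired analysis was possible because replicate numbers belong to libraries, and the models hold nothing measured per library; the within-pair tests set the partners of a gene pair against each other.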
